A study of Mus musculus with 44 samples.

Results

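The genes described here were 42 splicing regulators and their relatives of the mouse dorsal hippocampus, out of 27179 genes counted in each library. They were chosen by gene symbol, as families of RNA-binding proteins and their kinases, and the families were picked with earlier results of these same libraries known, so the p-values below describe these libraries and give no independent support to a direction. The families were 11 SR proteins (Srsf1 to Srsf7 and Srsf9 to Srsf12), 2 Tra2 proteins, 20 hnRNP genes, the 3 DBHS (Drosophila behavior, human splicing) proteins of the paraspeckle (Sfpq, Nono and Pspc1), 4 Clk kinases, and the cold-inducible RNA-binding proteins Rbm3 and Cirbp. The libraries came from wild-type (WT) mice and mice homozygous for the Kdm5b ΔARID allele (called mutants here), both F2 offspring of a C57BL/6J and 129S2/Sv cross, at 0 h (home cage), 1 h and 3 h after contextual fear conditioning, in which a context is paired with a foot shock. Per the study's methods these mice were 7–8 weeks old. The allele is described by the study as a deletion that truncates the JmjN domain and removes the ARID domain of the KDM5B protein. Each of the 6 groups held 6 libraries, 3 labelled male and 3 labelled female, and the 8 samples of an earlier naive cohort were not analysed here.

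SR proteins bind enhancer sequences in exons through RNA recognition motifs, recruit the spliceosome through a tail of arginine and serine repeats, and tend to favor exon inclusion, whereas many hnRNP proteins bind silencers and favor skipping. Clk kinases phosphorylate the arginine and serine repeats and release SR proteins from nuclear speckles, and the Clk1 and Clk4 transcripts themselves are held partly as intron-retaining RNA in the nucleus. Sfpq, Nono and Pspc1 form dimers with each other, gather on the long noncoding RNA Neat1 to build paraspeckles, and take part in splicing and transcription, with Sfpq supporting the expression of long neuronal genes. Rbm3 and Cirbp are induced by mild cooling, and their transcripts are known to follow body temperature. Many SR and hnRNP genes carry exons or introns whose inclusion makes a transcript that is degraded, and a count per gene sums both kinds of transcript.

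Upstream windows of 3 members that the results turn on, Sfpq, Cirbp and Clk4, are shown for the motifs they hold, from RefSeq (GRCm38.p6). Each is the 250 bases before an annotated start site, 5′ to 3′ on the + strand, with the searched motif in capitals. For Sfpq and Cirbp that site lies inside the annotated gene, which begins at 127020716 and 80165990. Sfpq (chr4:127021051-127021300) carries 4 matches to the CCAAT box CCAAT on both strands, which begin 160, 107, 104 and 62 bases before the start, and those at 107 and 104 overlap. The first of the Cirbp windows (chr10:80167589-80167838) carries 1 match to TCCCCGCC, an Sp1-type element known from studies of Cirbp under mild cold, 247 bases before the start. Clk4 (chr11:51262864-51263113) carries 1 match to the cAMP response element TGACGTCA, 65 bases before the start.
Sfpq: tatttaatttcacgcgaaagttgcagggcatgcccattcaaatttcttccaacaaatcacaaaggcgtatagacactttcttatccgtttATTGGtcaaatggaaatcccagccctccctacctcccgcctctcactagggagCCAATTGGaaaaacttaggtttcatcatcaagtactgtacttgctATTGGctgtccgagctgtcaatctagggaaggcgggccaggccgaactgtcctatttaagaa
Cirbp: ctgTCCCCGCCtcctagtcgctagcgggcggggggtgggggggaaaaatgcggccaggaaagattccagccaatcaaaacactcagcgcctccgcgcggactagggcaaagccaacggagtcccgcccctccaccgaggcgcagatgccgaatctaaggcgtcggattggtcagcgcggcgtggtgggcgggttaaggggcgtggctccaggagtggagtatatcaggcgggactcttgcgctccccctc
Clk4: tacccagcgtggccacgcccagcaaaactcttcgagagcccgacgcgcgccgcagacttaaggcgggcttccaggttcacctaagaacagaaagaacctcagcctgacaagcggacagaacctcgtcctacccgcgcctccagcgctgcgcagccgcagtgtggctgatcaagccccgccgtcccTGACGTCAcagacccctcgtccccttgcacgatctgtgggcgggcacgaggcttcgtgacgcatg

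Promoter windows were found for 38 of the 42 members, 51 windows in all, since some genes have more than 1 start. Their median GC content was 65.2%, against 52.4% over all 32851 windows, and ran from 45.2% in Sfpq to 81.2%. The GC box GGGCGG was in 41 of the 51 member windows (80.4%) and in 32.7% of all windows, and the CCAAT box in 26 (51.0%) against 33.8%. TCCCCGCC, which can overlap a GC box, was in 4 member windows (Cirbp, Hnrnpa0, Hnrnpf and Srsf7), or 7.84% against 4.64%. The heat shock element GAANNTTC was in 5 (9.80% against 6.69%) and TGACGTCA in 2, Clk4 and Tra2a (3.92% against 1.55%). A match describes the letters of these windows and says nothing of binding in these mice.

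The 36 libraries held 40274435 to 107000233 counts, and members took 0.510% to 0.571% of them (median 0.545%). The lowest count of any member in a library was 410, for Hnrnph3, so depth left no member undetected. Markers of the dissected tissue were present throughout, with the summed level of 4 neuronal markers between 4199 and 5668 CPM. The summed level of 5 choroid plexus markers ran from 42.3 to 7914 CPM across libraries, with group medians of 2082, 1034 and 2183 CPM in WT and 191.2, 123.9 and 1467 CPM in mutants at 0, 1 and 3 h. In 2 libraries the sex-linked transcripts went against the label (WT 1 h male 1 and mutant 3 h female 2). They were kept under their labels, and whether their genotype and time labels are right was not tested. Member values that move by over 1.5 times without these libraries are given both ways beside the result. Of the other leading values, those in WT at 1 h against 0 h became 0.17 for Srsf7, 0.15 for Srsf10, 0.14 for Sfpq, 0.14 for Tra2a and 0.22 for Rbm3 on the log2 scale. Those in mutants at 3 h against 0 h became 0.26 for Sfpq, -0.28 for Cirbp, 0.15 for Tra2a and 0.15 for Srsf10, and none of these was called. Without these 2 libraries, the number of genes called by edgeR went from 0 to 41 between genotypes at 1 h and from 2 to 18 at 3 h. In mutants it went from 0 to 18 at 3 h against 1 h and from 0 to 1 at 3 h against 0 h. In WT it went from 0 to 3 at 1 h against 0 h and from 0 to 3 at 3 h against 1 h, and 0 members were among the genes called. Kdm5b, the targeted gene, had a mean of 86.5 ± 2.84 CPM in naive WT and of 80.5 ± 3.96 CPM in naive mutants (SD, n = 6 each), a level over the whole gene that keeps the exons outside the deletion and so does not check the genotype.

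All 42 members were detected in every library. Per kb of exon, which allows comparison between genes, the median member had 35.0 CPM, against 6.03 CPM over the 15841 tested genes with an exon length. Hnrnpa2b1, an hnRNP that sorts RNAs to dendrites as well as regulating splicing, was the highest at 206.1 CPM per kb. Srsf5 followed at 99.6, Hnrnph1 at 93.8 and Hnrnpa0 at 78.9 CPM per kb. Sfpq was at 67.5 CPM per kb, Nono at 46.99 and Pspc1 at 8.25, so the DBHS proteins spanned much of the range. Clk1 was at 63.4 CPM per kb, Clk4 at 26.2, Clk3 at 19.8 and Clk2 at 14.1. Cirbp was at 38.0 and Rbm3 at 6.95 CPM per kb. Srsf12 was the lowest SR gene at 7.29 CPM per kb, and Hnrnph3 (4.44) and Hnrnpr (4.32) were the lowest members. The exon union of Hnrnpr is 21483 bases, and a long union lowers a value per kb.

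**Figure D1:**
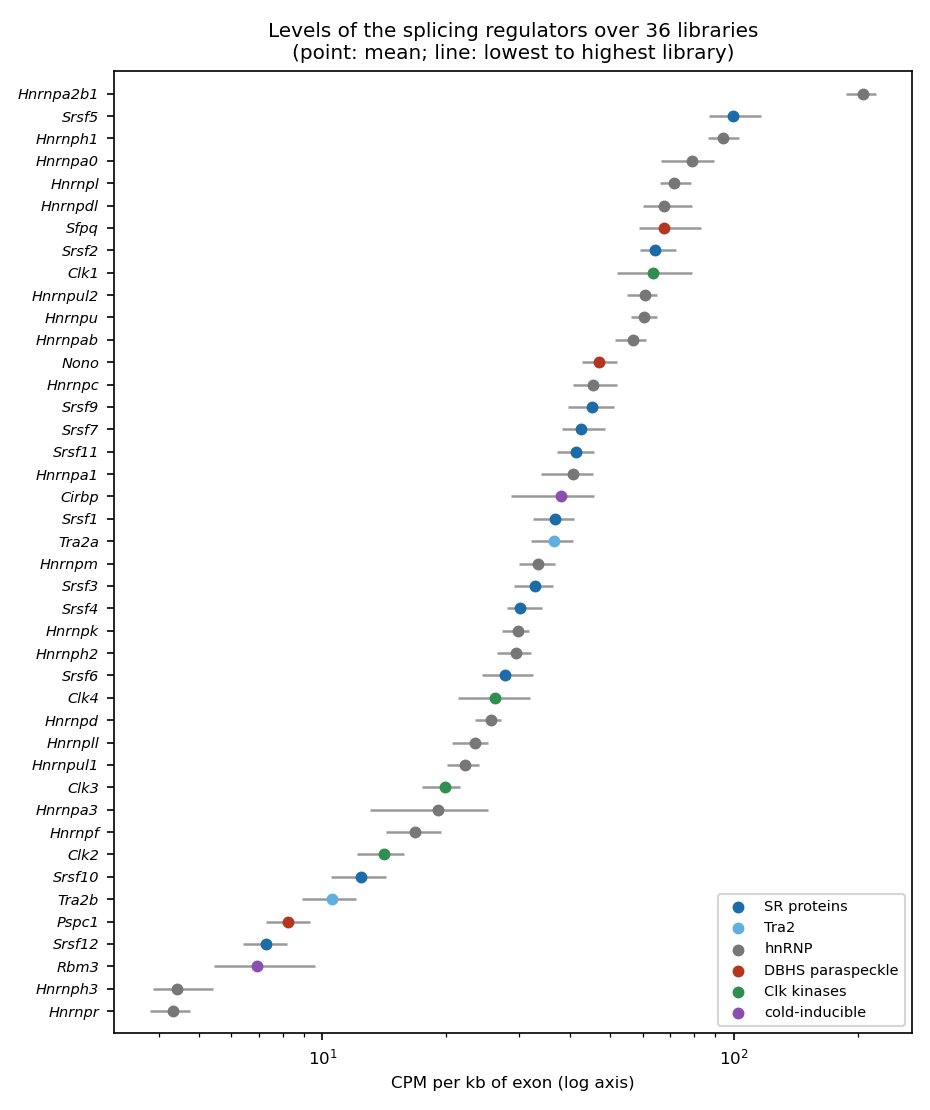
Level of each of the 42 genes in CPM per kb of exon on a log axis, with the mean over 36 libraries as a point colored by family and a line from the lowest to the highest library. Hnrnpa2b1 stands highest at 206.1 CPM per kb and Hnrnpr lowest at 4.32 CPM per kb.

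The members' within-group coefficient of variation (SD of CPM pooled over the 6 groups, divided by the mean) had a median of 5.24%. It was 7.14% in the 9715 tested genes within the same range of mean CPM. That range was wide (10.9 to 501.6 CPM) and the genes in it were not matched to the members in level, so the 2 medians do not compare genes of like level. Hnrnpd (2.91%) and Hnrnpu (2.98%), the latter a scaffold protein of the nuclear matrix, were the steadiest. Hnrnpa3 was the most variable at 18.8%, with mutants at 1 h between 68.1 and 125.8 CPM. Hnrnpa1 and Hnrnpa3 have processed pseudogenes, and how reads that map to several places were counted is not given in the sources used here, so their values are uncertain. Rbm3 (11.1%), Cirbp (10.8%), Clk1 (9.69%) and Clk4 (8.22%) came next. The highest group mean of a member exceeded its lowest by 1.70% (Hnrnpl) to 21.4% (Clk1), with a median of 8.13%.

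The comparisons ask how the Kdm5b ΔARID allele and training each bear on gene expression. None of the 42 members was called at an adjusted p under 0.05 by edgeR in any of 11 comparisons, which were 3 between genotypes, 6 between times within a genotype and 2 tests of a genotype difference in the response. Over all genes tested, 0% were called between genotypes at 0 h and at 1 h and 0.0115% at 3 h, 0.312% in mutants at 1 h against 0 h, and 0% in each other comparison. These shares depend on the tool, since DESeq2 with sex called 98 genes between genotypes at 1 h and 50 at 3 h (0 members in either), 363 in mutants at 1 h against 0 h and 124 at 3 h against 0 h (2 members in either). The largest log2 fold change of a member in a pairwise comparison was -0.28, and the median standard error (SE) of a member lay between 0.043 and 0.048. In bulk tissue a lower level cannot be told apart from fewer cells that express the gene.

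Counts at an unadjusted p under 0.05 are read against the share of all genes that passed. Between genotypes they were 3 of 42 at 0 h (background 6.15%), 3 at 1 h (8.61%) and 0 at 3 h (6.36%). In WT they were 6 at 1 h against 0 h (background 5.36%), 7 at 3 h against 0 h (8.23%) and 6 at 3 h against 1 h (7.41%). In mutants they were 8 at 1 h against 0 h (background 11.1%), 9 at 3 h against 0 h (8.57%) and 3 at 3 h against 1 h (8.04%). The response differed between genotypes at that level in 1 member at 1 h (background 3.78%) and 1 at 3 h (1.52%). Between naive genotypes 33 of 42 members had a positive log2 fold change in mutants against WT (78.6%, against 49.3% of all genes), with a median log2 fold change of 0.034 against -0.002 over all genes. The summed choroid plexus markers also differed between these groups. With them as a covariate 0 members were called, and their part in the count of signs was not tested. The members' medians in the other pairwise comparisons lay between -0.002 and 0.035. For the genotype difference in the response at 3 h the median was -0.023 against -0.002 over all genes, and 31 of 42 members were negative, among them 18 of the 20 hnRNP genes. At 1 h it was -0.025 against -0.002, with 28 of 42 members negative. Positive values made up 26.2% of members at 3 h and 33.3% at 1 h, against 49.3% of all genes at either time. These counts and the naive one rest on the same naive libraries. Groups of 6 that did not overlap were found for Srsf7 and Hnrnph1 in WT at 1 h against 0 h (background 0.248% of genes), Hnrnpm in WT at 3 h against 0 h (0.407%) and Sfpq in mutants at 1 h against 0 h (1.36%). No member had groups that did not overlap between genotypes at 0, 1 or 3 h (background 0.248%, 0.608% and 0.356%), in WT at 3 h against 1 h (0.414%) or in mutants at 3 h against 0 h (0.521%) or 1 h (0.435%).

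**Figure D2:**
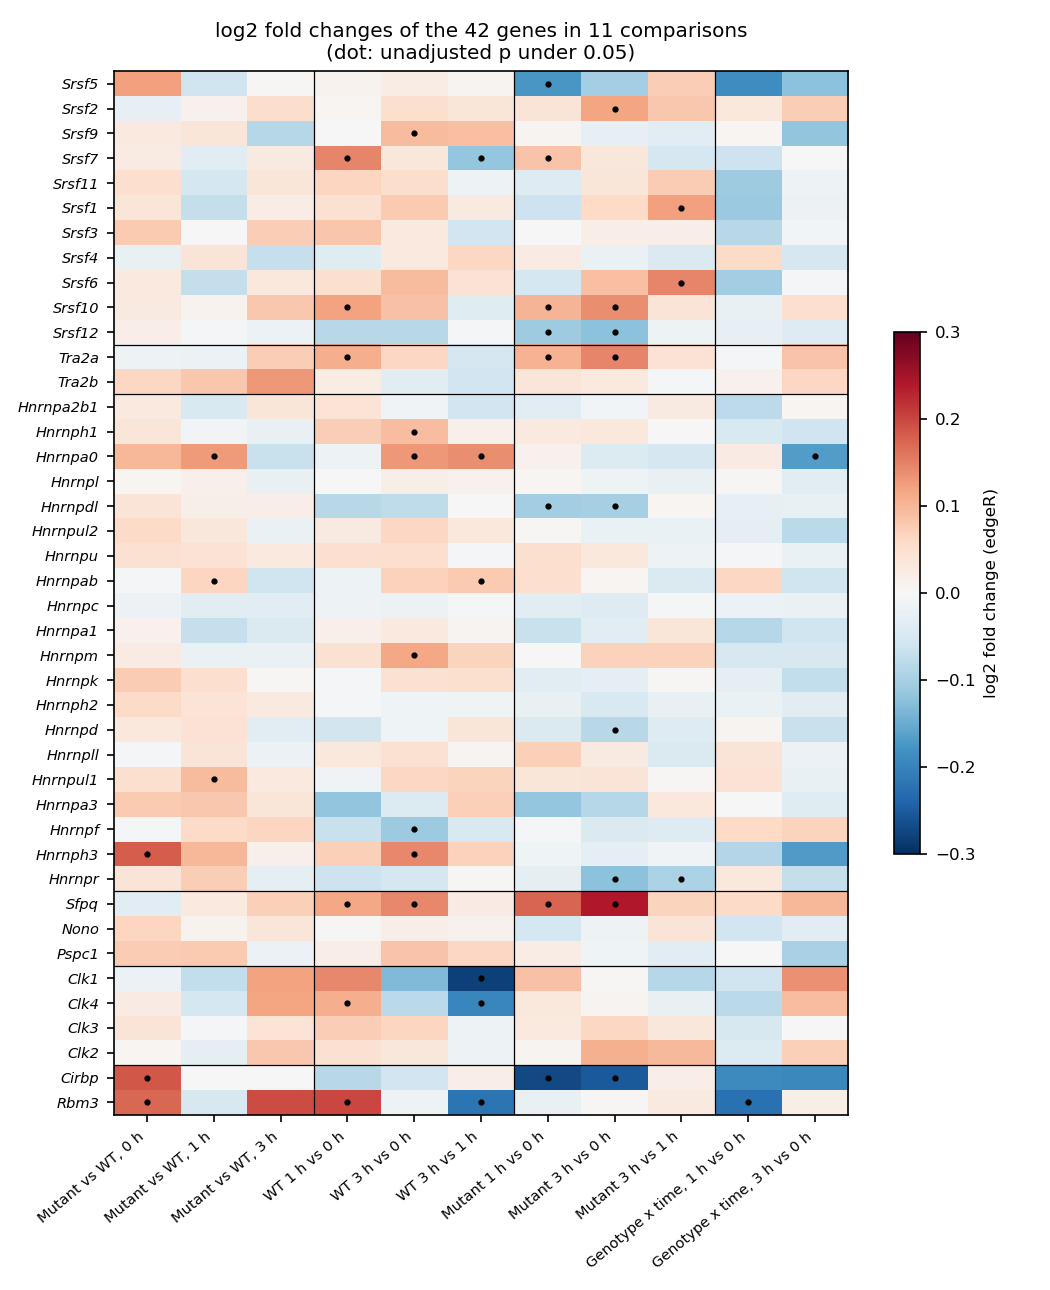
Log2 fold change (edgeR) of each gene in 11 comparisons, as color from blue (-0.3) to red (0.3), with families separated by lines and a dot where the unadjusted p was under 0.05. Most cells are pale, Sfpq is red in all 4 comparisons of trained with naive mice, and Cirbp is blue in mutants after training.

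Among the SR proteins, Srsf7, which acts in splicing and in export of mRNA, had groups that did not overlap in WT. It lay between 100.5 and 107.0 CPM (median 105.7) in WT at 0 h and between 110.7 and 120.3 CPM (median 116.4) at 1 h. Every WT library at 1 h was above every one at 0 h, with a log2 fold change of 0.15 (adjusted p = 0.922, SE 0.037). In mutants Srsf7 lay between 100.2 and 110.8 CPM at 0 h and between 108.8 and 117.2 CPM at 1 h, with 5 of 6 libraries above all naive ones and a log2 fold change of 0.09 (adjusted p = 0.384, SE 0.036). At 3 h the WT libraries ran from 98.7 to 125.4 CPM and overlapped both earlier groups.

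Srsf10, a splicing regulator that is dephosphorylated and turned into a repressor by heat shock, was higher after training in both genotypes. WT libraries ran from 61.2 to 76.1 CPM (median 68.4) at 0 h and from 69.6 to 78.1 CPM (median 73.8) at 1 h, with all 6 above the naive median (log2 fold change 0.12, adjusted p = 0.922, SE 0.051). Mutant libraries ran from 66.7 to 73.9 CPM (median 67.9) at 0 h, from 72.4 to 77.4 CPM (median 74.4) at 1 h and from 68.7 to 83.4 CPM (median 77.3) at 3 h. Their log2 fold changes against 0 h were 0.10 (adjusted p = 0.323, SE 0.039) at 1 h and 0.14 (adjusted p = 0.477, SE 0.051) at 3 h. None of these passed the threshold.

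Srsf5, an SR protein known to be induced by growth signals, had a lower mean after training in mutants. It ran from 153.2 to 192.5 CPM (median 183.3) in naive mutants and from 144.0 to 172.8 CPM (median 153.4) at 1 h, with 3 of 6 libraries below all naive ones (log2 fold change -0.18, adjusted p = 0.339, SE 0.068). In WT the means were 162.1 ± 12.8 CPM at 0 h and 163.7 ± 13.8 CPM at 1 h (SD, n = 6 each). The genotype difference of that response was -0.19 (adjusted p = 0.999, SE 0.095), and naive mutants differed from naive WT by 0.12 (adjusted p = 0.842, SE 0.067), a value that became 0.06 with choroid plexus markers in the model. The part of the choroid plexus in it was not tested further.

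Srsf1, the founding SR protein, and Srsf6 were lowest in mutants at 1 h and highest in mutants at 3 h. Srsf1 ran from 180.4 to 207.3 CPM (median 196.3) at 1 h and from 206.0 to 226.5 CPM (median 210.7) at 3 h, with a log2 fold change of 0.12 (adjusted p = 0.508, SE 0.042). Srsf6 ran from 90.0 to 107.5 CPM (median 96.3) at 1 h and from 96.8 to 119.7 CPM (median 108.0) at 3 h, with a log2 fold change of 0.15 (adjusted p = 0.527, SE 0.054). Both groups overlapped, with 4 of 6 libraries at 3 h above all at 1 h for either gene. Srsf11, which helps include neuronal microexons, differed by 0.08 (adjusted p = 0.699, SE 0.044) and the nuclear speckle protein Srsf2 by 0.08 (adjusted p = 0.704, SE 0.048) in the same comparison. Between genotypes at 1 h Srsf1 differed by -0.07 (adjusted p = 0.671, SE 0.043), and by -0.05 without mutant 1 h male 1. The genotype difference of the response at 1 h was -0.11 for Srsf1 (SE 0.066), -0.11 for Srsf11 (SE 0.062) and -0.10 for Srsf6 (SE 0.068), each with an adjusted p of 0.999, and at 3 h it was -0.12 for Srsf9 (adjusted p = 1.00, SE 0.070).

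**Figure D3:**
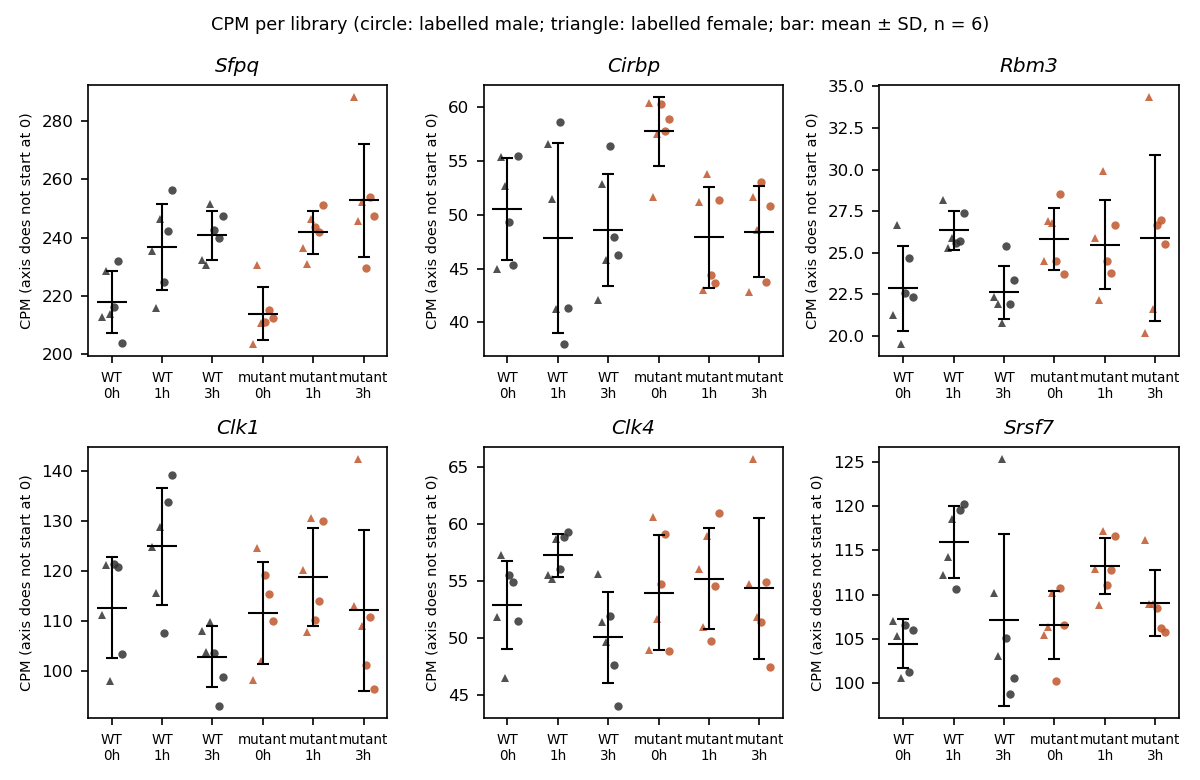
CPM of Sfpq, Cirbp, Rbm3, Clk1, Clk4 and Srsf7 in each of the 36 libraries by genotype and time, with circles for libraries labelled male, triangles for those labelled female and bars for the mean ± SD of 6. The Sfpq mean is 213.8 CPM in naive mutants and 252.8 CPM at 3 h, and naive mutants have the highest Cirbp mean at 57.7 CPM (the axes do not start at 0).

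Of the Tra2 proteins, which bind exonic GAA-rich enhancers, Tra2a was higher after training in both genotypes. WT libraries ran from 60.7 to 64.8 CPM (median 62.9) at 0 h and from 62.8 to 73.3 CPM (median 68.0) at 1 h. Mutant libraries ran from 57.9 to 68.1 CPM (median 62.0) at 0 h and from 61.6 to 72.6 CPM (median 69.9) at 3 h, where 5 of 6 lay above all naive ones. The log2 fold change was 0.11 in WT at 1 h (adjusted p = 0.924, SE 0.048), 0.10 in mutants at 1 h (adjusted p = 0.406, SE 0.045) and 0.15 in mutants at 3 h (adjusted p = 0.439, SE 0.050). At 3 h the genotypes differed by 0.07 for Tra2a (adjusted p = 0.827, SE 0.043) and by 0.13 for Tra2b (adjusted p = 0.803, SE 0.064), with Tra2b between 32.5 and 37.5 CPM in WT and between 32.1 and 42.01 CPM in mutants.

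The 20 hnRNP genes had medians of log2 fold change between -0.04 and 0.04 in all 11 comparisons. Hnrnpa0, which binds AU-rich elements of inducible mRNAs, was the hnRNP with the most dots in the map of log2 fold changes. WT libraries ran from 178.4 to 229.0 CPM (median 199.9) at 0 h, from 194.0 to 212.5 CPM (median 197.4) at 1 h and from 207.6 to 234.3 CPM (median 220.5) at 3 h. Mutant libraries ran from 201.7 to 233.4 CPM (median 216.0) at 0 h, from 208.7 to 239.3 CPM (median 215.4) at 1 h and from 201.2 to 227.8 CPM (median 207.0) at 3 h. Mutants at 1 h exceeded WT by 0.13 (adjusted p = 0.316, SE 0.034), with 4 of 6 above all WT libraries, and by 0.13 (adjusted p = 0.173) without WT 1 h male 1. WT at 3 h exceeded WT at 1 h by 0.14 (adjusted p = 0.434, SE 0.038) and WT at 0 h by 0.13 (adjusted p = 0.580, SE 0.055), and the genotype difference of the response at 3 h was -0.17 (adjusted p = 1.00, SE 0.072).

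Hnrnpm, which competes with other splicing regulators for intronic sites, did not overlap between WT at 0 h (120.9 to 133.4 CPM, median 129.7) and WT at 3 h (135.6 to 147.1 CPM, median 139.7). Its log2 fold change was 0.12 (adjusted p = 0.421, SE 0.033), and 1149 of its exon bases are shared with Marchf2 on the same strand. Hnrnph1, which binds G-rich sequences, ran from 216.7 to 231.3 CPM (median 226.5) in naive WT, from 231.7 to 248.9 CPM (median 237.4) at 1 h and from 228.4 to 258.3 CPM (median 238.7) at 3 h. The naive and 1 h groups did not overlap, by a margin of under 1 CPM, with log2 fold changes of 0.07 (adjusted p = 0.924, SE 0.035) at 1 h and 0.09 (adjusted p = 0.525, SE 0.035) at 3 h. In mutants the naive libraries ran from 217.8 to 238.7 CPM and overlapped both later groups.

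None of the remaining hnRNP differences passed the threshold either. Hnrnph3, the least counted member, ran from 9.47 to 10.7 CPM (median 9.84) in naive WT and from 10.3 to 13.2 CPM (median 10.96) in naive mutants, a log2 fold change of 0.18 (adjusted p = 0.769, SE 0.073) with 5 of 6 mutants above all WT. It was also higher in WT at 3 h than at 0 h by 0.15 (adjusted p = 0.584, SE 0.062), and its genotype difference of the response at 3 h was -0.17 (adjusted p = 1.00, SE 0.087). Hnrnpk, a poly(C)-binding protein, differed between naive genotypes by 0.08 (adjusted p = 0.832, SE 0.037), and shares 257 exon bases with Rmi1 on the other strand. Hnrnpul1 (0.09, adjusted p = 0.417, SE 0.033) and Hnrnpab (0.06, adjusted p = 0.487, SE 0.025) were higher in mutants than in WT at 1 h. Hnrnpab was also higher in WT at 3 h than at 1 h by 0.08 (adjusted p = 0.571, SE 0.029), and overlaps exons of Phykpl on the other strand. Hnrnpr, known in motor axons, ran from 91.6 to 102.4 CPM in naive mutants, from 91.7 to 98.8 CPM at 1 h and from 84.5 to 92.4 CPM at 3 h. At 3 h it differed by -0.12 from 0 h (adjusted p = 0.420, SE 0.039) and by -0.09 from 1 h (adjusted p = 0.531, SE 0.035). Hnrnpd, a regulator of mRNA decay, had a genotype difference of the response at 3 h of -0.07 (adjusted p = 1.00, SE 0.042).

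Sfpq had the smallest p of any member after training. Naive mutants ran from 203.5 to 230.6 CPM (median 211.6), mutants at 1 h from 230.8 to 251.3 CPM (median 242.7) and mutants at 3 h from 229.4 to 288.3 CPM (median 249.8). All 6 mutants at 1 h and 5 of 6 at 3 h lay above every naive mutant, although the gap at 1 h was under 1 CPM. The summed level of 4 dentate granule cell markers, none at 0 in any library, moved the same way in mutants, from 299.2–365.3 CPM (median 322.4) at 0 h to 338.1–406.8 CPM (median 379.1) at 1 h and 295.3–435.7 CPM (median 400.5) at 3 h. Mutant 3 h female 1 was highest among mutants in that sum and in Sfpq, and the part of these cells in the result was not tested. Against 0 h Sfpq differed by 0.17 on the log2 scale at 1 h (adjusted p = 0.077, SE 0.037), or 13.0% of the naive mean. At 3 h Sfpq differed by 0.24 (adjusted p = 0.280, SE 0.050), or 18.2% of the naive mean. Leaving out each library in turn gave 0.16 to 0.20 at 1 h with adjusted p-values from 0.020 to 0.199, the smallest without mutant 0 h female 2, the highest naive library. DESeq2 with sex as a covariate gave adjusted p-values of 0.0019 at 1 h and 0.0063 at 3 h in mutants.

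In WT the direction was the same. Naive WT ran from 203.9 to 232.1 CPM (median 214.9), WT at 1 h from 215.9 to 256.2 CPM (median 238.7) and WT at 3 h from 230.5 to 251.5 CPM (median 241.3). The groups overlapped, with 4 of 6 libraries at 1 h and 5 of 6 at 3 h above all naive ones. The dentate marker sum in WT had medians of 318.3, 368.4 and 369.5 CPM at 0, 1 and 3 h, and its range at 0 h (287.8 to 503.2 CPM) spanned those at 1 h and 3 h. Against 0 h Sfpq differed by 0.12 on the log2 scale at 1 h (adjusted p = 0.922, SE 0.050). At 3 h Sfpq differed by 0.14 (adjusted p = 0.421, SE 0.041). Nono, its partner, stayed between group means of 118.0 and 123.8 CPM, and Pspc1 between 43.0 and 46.1 CPM, with 0.08 for Pspc1 between genotypes at 1 h (adjusted p = 0.672, SE 0.048). No genotype difference of the Sfpq response was called by edgeR at 1 h or 3 h.

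**Figure D4:**
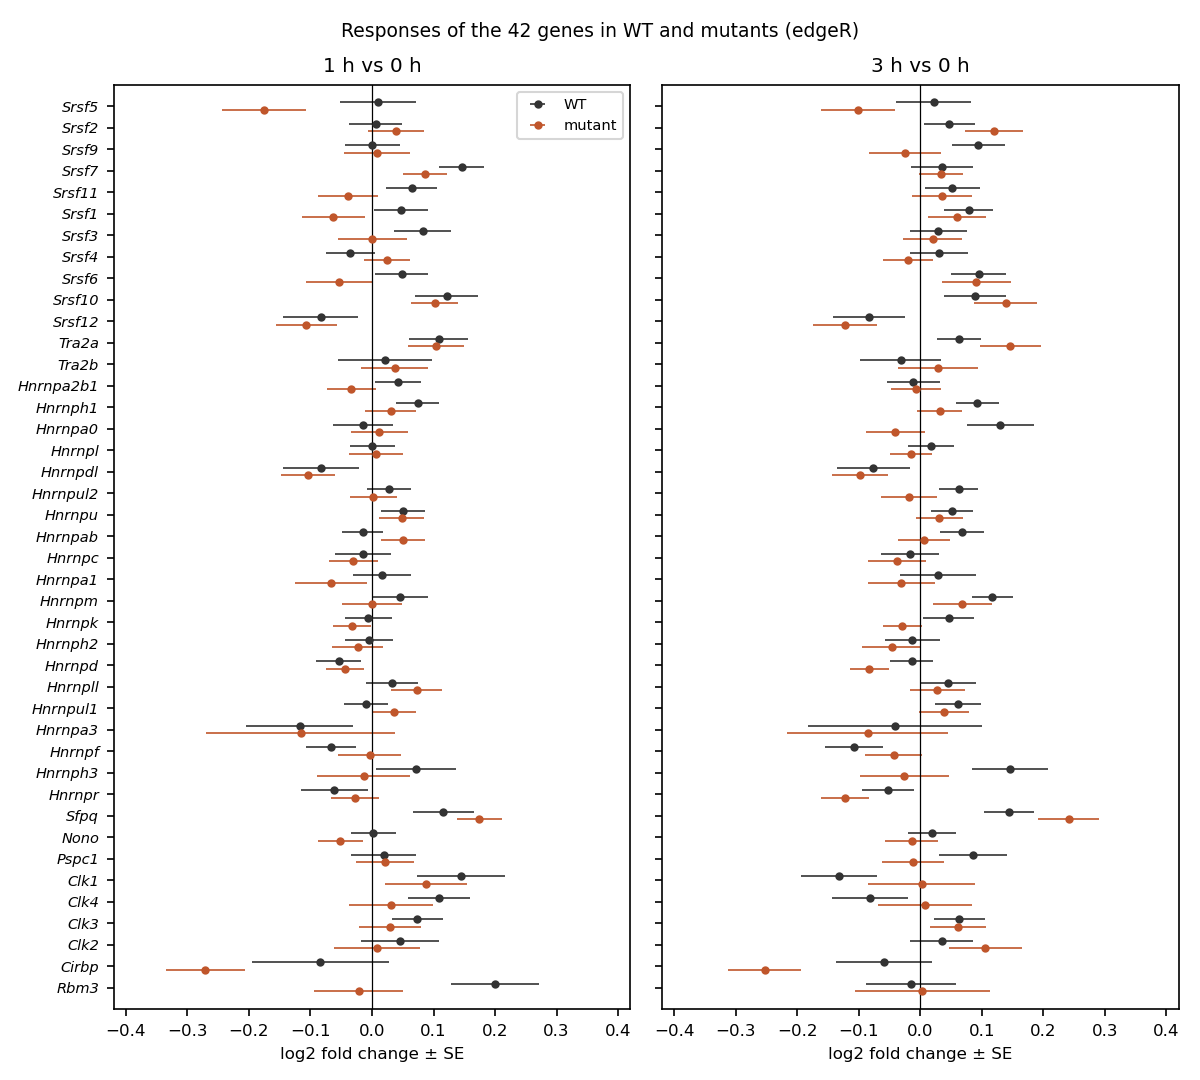
Log2 fold change ± SE (edgeR) of each gene at 1 h (left) and 3 h (right) against 0 h, in WT (dark) and mutants (orange). Sfpq lies to the right of 0 in both genotypes and at both times, and Cirbp lies at -0.27 and -0.25 in mutants.

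Clk1 and Clk4 had the lowest log2 fold changes among the kinases, in WT between 1 h and 3 h. Clk1 ran from 98.1 to 121.3 CPM (median 116.0) in naive WT, from 107.7 to 139.2 CPM (median 126.7) at 1 h and from 93.1 to 109.8 CPM (median 103.8) at 3 h. Its log2 fold change at 3 h against 1 h was -0.28 (adjusted p = 0.373, SE 0.062), with 4 of 6 libraries below all at 1 h. The lowest library at 1 h was WT 1 h male 1, of discordant sex, and without it the value was -0.32 (adjusted p = 0.105). DESeq2 with sex gave an adjusted p of 0.017.

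Clk4 ran from 46.5 to 57.3 CPM (median 53.4) in naive WT, from 55.2 to 59.3 CPM (median 57.3) at 1 h and from 44.0 to 55.6 CPM (median 50.5) at 3 h, with 5 of 6 libraries at 3 h below all at 1 h. Its log2 fold change was -0.20 (adjusted p = 0.413, SE 0.051). In mutants the Clk1 means were 111.7, 118.8 and 112.2 CPM and the Clk4 means 54.0, 55.2 and 54.3 CPM at 0, 1 and 3 h. Mutant 3 h female 2 held the highest level of either gene in any library (142.3 and 65.7 CPM), of Rbm3 (34.4 CPM) and of the summed oligodendrocyte (10060 CPM) and thalamus (125.1 CPM) markers. The other mutants at 3 h had at most 113.0 CPM of Clk1. Between genotypes at 3 h Clk1 differed by 0.12 (adjusted p = 0.817, SE 0.065) and Clk4 by 0.12 (adjusted p = 0.817, SE 0.065), and without that library by 0.06 (adjusted p = 0.750) and 0.07 (adjusted p = 0.764). The part of these other cell types was not tested. Clk3 (group means 47.4 to 51.0 CPM, with 584 exon bases shared with Edc3) and Clk2 (29.6 to 32.1 CPM) were not among the leading members of any comparison.

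Cirbp had the largest differences in mutants. Naive mutants ran from 51.7 to 60.3 CPM (median 58.3), and 5 of 6 lay above all 6 naive WT, which ran from 44.9 to 55.5 CPM (median 51.0). The log2 fold change between naive genotypes was 0.19 (adjusted p = 0.754, SE 0.064). Mutants then lay between 43.1 and 53.7 CPM (median 47.8) at 1 h and between 42.8 and 53.0 CPM (median 49.7) at 3 h. Of these, 5 of 6 at either time were below all naive mutants, with log2 fold changes of -0.27 at 1 h (adjusted p = 0.099, SE 0.064) and -0.25 at 3 h (adjusted p = 0.280, SE 0.059). DESeq2 with sex gave adjusted p-values of 0.012 and 0.026. The mitochondrial share of counts was also lower after training, at 3.74% to 4.55% (median 4.17%) in naive mutants, 3.49% to 3.85% (median 3.72%) at 1 h and 3.46% to 4.36% (median 3.76%) at 3 h. Mutant 0 h female 2, with the lowest share among naive mutants, had the lowest Cirbp and the highest Sfpq of that group, and the part of RNA quality in either result was not tested.

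In WT the values spread more widely after training. WT at 1 h fell into 3 libraries between 38.0 and 41.3 CPM and 3 between 51.5 and 58.6 CPM, and WT at 3 h ran from 42.1 to 56.4 CPM. The genotype difference of the Cirbp response was not called by edgeR, with -0.19 at 3 h (adjusted p = 1.00, SE 0.099). The means at 1 h (47.9 CPM in both genotypes) and at 3 h (48.5 CPM in WT, 48.4 CPM in mutants) differed between genotypes by less than the spread within a group.

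Rbm3, the other cold-inducible gene, had its highest WT mean at 1 h. WT ran from 19.5 to 26.7 CPM (median 22.5) at 0 h, from 25.3 to 28.2 CPM (median 25.8) at 1 h and from 20.8 to 25.4 CPM (median 22.2) at 3 h. The log2 fold change was 0.20 at 1 h against 0 h (adjusted p = 0.922, SE 0.072) and -0.22 at 3 h against 1 h (adjusted p = 0.408, SE 0.053), with 5 of 6 libraries at 3 h below all at 1 h. Naive mutants ran from 23.7 to 28.5 CPM (median 25.7) and exceeded naive WT by 0.17 (adjusted p = 0.794, SE 0.077). Mutants at 1 h ran from 22.1 to 29.9 CPM (median 25.2), and the genotype difference of the response at 1 h was -0.22 (adjusted p = 0.999, SE 0.102). At 3 h the genotypes differed by 0.20 (adjusted p = 0.822, SE 0.108), and by 0.07 (adjusted p = 0.793) without mutant 3 h female 2. Rbm3 shares 94 exon bases with Rbm3os on the other strand.

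WT and mutant responses come from separate mice, so they can be set side by side. At 1 h, 4 members had an unadjusted p under 0.05 in the same direction in both genotypes (Srsf7, Srsf10, Tra2a and Sfpq, all higher), where 1.37% of all genes did so. At 3 h only Sfpq did, where 2.38% of all genes did so. Across the 42 members the log2 fold changes of the genotypes had a Pearson correlation of 0.59 (Spearman 0.51) at 1 h and 0.55 (Spearman 0.56) at 3 h, against 0.19 (0.25) and 0.27 (0.38) across all genes. These are correlations across genes, which are not independent replicates and differ in precision between the sets. The sign was shared by 28 of 42 members (66.7%) at 1 h and 27 (64.3%) at 3 h, against 60.2% and 66.5% of all genes.

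Pairs of members were compared from mouse to mouse. With group means removed, 572 of the 861 pairs of members were positively correlated over the 36 libraries (median r = 0.11). By permutation within groups with adjustment over all pairs, 54 positive and 6 negative pairs had an adjusted p under 0.05. The closest pair was Clk1 and Clk4 (r = 0.85, rho = 0.87, p = 1e-05, the smallest that 100000 permutations can give, adjusted p = 0.0086). It stayed at r = 0.84 without the 2 libraries farthest from the Clk1 median, which were the 2 of discordant sex, and was between 0.62 and 0.98 within each group of 6. Srsf1 and Clk3 (r = 0.70), Hnrnpa1 and Hnrnpa2b1 (r = 0.69), and Srsf5 with Clk2 (r = 0.67) came next. The most opposed pair was Srsf10 and Hnrnpa0 (r = -0.61, rho = -0.54, permutation adjusted p = 0.023, and -0.48 without the 2 farthest libraries). All pairs share their libraries and so share depth, dissection and RNA quality.

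**Figure D5:**
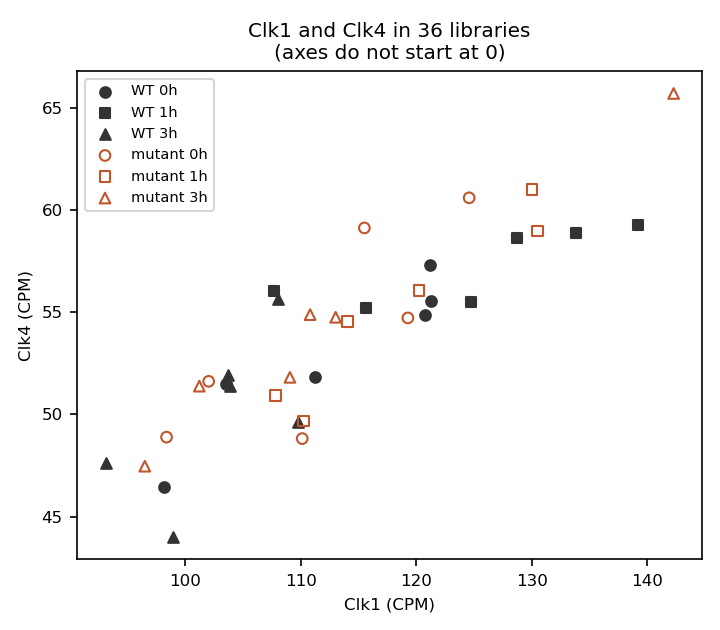
Clk1 against Clk4 in CPM, 1 point per library, with filled dark symbols for WT, open orange symbols for mutants and shapes for 0, 1 and 3 h. Libraries with more Clk1 hold more Clk4 (r = 0.85 with group means removed), and the library at the top right is mutant 3 h female 2 with 142.3 and 65.7 CPM (the axes do not start at 0).

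Related genes were described by the same tests. Training was visible in 10 immediate early genes, all with an unadjusted p under 0.05 and higher at 1 h in both genotypes. Of these, 4 were called by edgeR in mutants, with log2 fold changes of 1.37 for Fosb, 0.73 for Nr4a2, 0.49 for Egr3 and 0.87 for Egr1 (adjusted p between 7.8e-06 and 0.015), and none in WT, where Fosb had 1.35 (adjusted p = 0.282) and Npas4 1.08 (adjusted p = 0.282). Over all genes, 0.312% were called in mutants at 1 h against 0 h and 0% in WT. Of 15 other paraspeckle and speckle components, 1 was called in mutants at 1 h. At an unadjusted p under 0.05, 2 of the 15 were higher and 0 lower, where 11.1% of all genes passed. Rbm14, a paraspeckle protein needed to build the body, was at 34.6 ± 1.45 CPM in naive mutants and rose to 41.6 ± 2.57 CPM at 1 h (SD, n = 6 each, log2 fold change 0.26, adjusted p = 0.037 by edgeR). In WT Rbm14 differed by 0.15 (adjusted p = 0.924). Its WT mean was 37.6 ± 3.22 CPM before training and 41.8 ± 4.04 CPM after 1 h (SD, n = 6 each). Before training, mutants differed from WT by -0.12 on the log2 scale (adjusted p = 0.824 by edgeR, SE 0.058). The Rbm14 means at 1 h differed between genotypes by less than the spread within a group. Neat1, the paraspeckle scaffold RNA, differed between genotypes in its response at 1 h by -0.44 (adjusted p = 0.999, SE 0.242), and naive mutants were at 94.7 ± 19.4 CPM, 0.28 above naive WT (adjusted p = 0.856, SE 0.161). In WT it was at 78.5 ± 15.7 CPM in naive WT and 94.1 ± 17.8 CPM at 1 h (log2 fold change 0.26, SE 0.114, adjusted p = 0.924 by edgeR).

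Of 21 heat shock chaperones and temperature-responsive genes, 2 were called in mutants at 1 h against 0 h, where 0.312% of all genes were called. Dnajb5 rose from 146.9 ± 5.95 to 197.7 ± 18.6 CPM (log2 fold change 0.43, adjusted p = 0.0075 by edgeR), and Dnajb1 from 43.5 ± 4.66 to 57.2 ± 1.66 CPM (0.39, adjusted p = 0.012). In WT these differed by 0.31 and 0.40 (adjusted p = 0.922 each). In that comparison no gene was called among 18 SR protein kinases and regulators (smallest adjusted p 0.407, Acin1), 28 neuronal splicing regulators (0.227, Elavl3) or 43 core spliceosome genes (0.280, Luc7l3). Median log2 fold changes of these 3 lists were 0.010, 0.011 and 0.012, beside 0.001 over the members and -0.006 over all genes. At an unadjusted p under 0.05, 2 of the SR kinases and regulators, 3 of the neuronal regulators (2 higher, 1 lower) and 3 of the core spliceosome (2 higher, 1 lower) passed, where 11.1% of all genes did.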

How the data were processed

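RNA from the dorsal hippocampus of 36 mice was sequenced as poly(A) libraries, 1 mouse per library. The authors aligned reads with STAR (2.7.8a) and counted them per gene with featureCounts (2.0.1) on mm10, per the submitters' processing notes. The authors deposited raw counts, not normalized, in 1 file per library. The gene annotation, strand setting and treatment of multi-mapping reads are not given in the sources used here, so genes with shared exon bases may share or lose reads. All 42 members were matched by symbol, and 25275 of 27179 gene identifiers were named from RefSeq.

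Each of 9 pairwise comparisons was fitted on its 12 libraries, and 2 genotype by time interactions on 24 libraries, with edgeR 4.0.16 (R 4.3.3). Genes were kept by filterByExpr (minimum count 10), scaled by TMM and tested by the quasi-likelihood F-test (two-sided, robust) with sex as labelled as a covariate. A gene was called at a Benjamini-Hochberg adjusted p under 0.05 over all genes tested. Replicates are separate mice. Levels are counts scaled by TMM library size (CPM), and levels per kb divide by the union of exons in GENCODE M21 (GRCm38). Percentages and levels per library carry counting error and the spread between mice. Correlations used log2 CPM (prior count 2) and 100000 permutations within groups. The members, related lists and tests were chosen with earlier results of these data known. In each comparison the text names every member called, every member whose groups do not overlap and the 5 with the smallest p, and from each related list the genes called or otherwise up to 3 with the smallest p, in the comparisons described. The test was checked on simulated data. Alternatives were DESeq2 1.42.0 with and without sex, RLE factors, no filter, no sex covariate, all 36 libraries in 1 fit, a replicate block, both libraries of discordant sex left out and each library left out, and, chosen after seeing the data, choroid plexus markers as a covariate. Summaries and figures were made in Python 3.11.15 (pandas 2.3.3, Matplotlib 3.10.9, NumPy 2.4.6).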

Additional observations from a re-analysis of the deposited data

Results flagged for a closer look

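In 11 of 150 groups of 6 libraries (25 named members in 6 groups), 1 library stood apart from the other 5 by Dixon's criterion, which chance alone passes in about 1 in 20 groups. Of these, 6 were in mutants at 3 h. There the mutant female 1 library had the highest Srsf1 (226.5 CPM, next 213.1) and Srsf7 (116.2 CPM, next 109.0) and the lowest Hnrnpab (142.9 CPM, next 156.3). Mutant female 2, of discordant sex, had the highest Clk1 (142.3 CPM, next 113.0), mutant male 3 the lowest Tra2a (61.6 CPM, next 68.6) and mutant male 2 the lowest Hnrnpd (162.3 CPM, next 170.8). In naive mutants, female 2 had the lowest Cirbp (51.7 CPM, next 57.5), male 3 the highest Srsf9 (59.3 CPM, next 53.0) and male 1 the lowest Hnrnpd (173.1 CPM, next 181.3). In mutants at 1 h male 3 had the highest Srsf11 (144.2 CPM, next 129.6), and in naive WT male 1 had the lowest Hnrnpm (120.9 CPM, next 129.2).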

How the results depend on the processing

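Of 252 counts of members called under an alternative, 244 were 0, as in the fits reported. DESeq2 with sex called 2 members each in WT at 3 h against 1 h (Clk1 and Rbm3), in mutants at 1 h against 0 h and in mutants at 3 h against 0 h (Cirbp and Sfpq in either). DESeq2 without a covariate called 1 (Clk1), 2 and 2 (Cirbp and Sfpq) in these. Calls over all genes were also more numerous there, 62, 363 and 124 with sex and 49, 402 and 135 without, against 0, 54 and 0 by edgeR. Between genotypes DESeq2 with sex and without it called 16 and 23 genes at 0 h, 98 and 110 at 1 h, and 50 and 42 at 3 h, against 0, 0 and 2 by edgeR. In WT it called 5 and 9 at 1 h and 75 and 49 at 3 h against 0 h, and in mutants 81 and 70 at 3 h against 1 h, against 0 by edgeR in each. Without the libraries of discordant sex edgeR called 41 genes between genotypes at 1 h, 18 at 3 h and 18 in mutants at 3 h against 1 h. It also called 3 in WT at 1 h against 0 h, 3 in WT at 3 h against 1 h and 1 in mutants at 3 h against 0 h. Without the sex covariate edgeR called 1 member, Sfpq in mutants at 1 h (adjusted p = 0.048). Leaving out single libraries gave 0 to 1 in that comparison, the 1 being Sfpq without mutant 0 h female 2, and 0 in each other. The cause of these differences was not tested. The log2 fold changes of named members kept their direction under each of these alternatives and in all 792 values with a library left out. These members were named for small p-values or separate groups in the same libraries, so a kept direction gives no independent support. The largest shift of the median of all genes was 0.01. With the replicate block (sex and replicate number), 0 members were called in each of the 11 comparisons, and the count over all genes went from 54 to 37 in mutants at 1 h against 0 h from 0 to 5 between genotypes at 1 h and from 2 to 0 at 3 h. Sfpq in mutants at 1 h then had an adjusted p of 0.122. Deviations of same-numbered libraries correlated between -0.28 and 0.35. They were all positive between naive genotypes (0.003 to 0.27) and in mutants at 1 h against 0 h (0.05 to 0.18), and the lowest was negative in each other comparison. Libraries of different number were not compared, so whether the numbers stand for a shared batch was not tested. Depth did not limit detection of the members.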
